A study of Mus musculus with 10 samples.

Results

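The genes described here are 10 genes of arginine use: *Arg1*, *Arg2* and *Nos2*, which code for the enzymes that break arginine down, *Slc7a1* and *Slc7a2*, which code for carriers of cationic amino acids, and *Odc1*, *Azin1*, *Srm*, *Sms* and *Sat1*, which make, control or acetylate polyamines. They were taken by name from a table of read counts for 55487 genes, and all 10 passed the filter on low counts that left 13740 genes for testing. The cells came from the spinal cord of 5 adult male C57BL/6 mice with the Arg1tm1Lky allele, a reporter that puts yellow fluorescent protein (YFP) under the *Arg1* promoter, and all of them had experimental autoimmune encephalomyelitis (EAE) at peak disease, induced with a myelin peptide in complete Freund's adjuvant and pertussis toxin. From each mouse, viable cells that lacked CD3 and Ly6G and carried CD45 and CX3CR1 were split into 200000 YFP+ (ARG1+) and 100000 YFP- (ARG1-) cells, so that each animal gave a pair of libraries. The animals bear the names m2, m6, m234, m235 and m236, and this is their order wherever values are listed per animal. The study has no healthy mice and no cells of other tissues in this table, the study states that the gate does not cleanly part border macrophages from cells derived from monocytes, and each library is a mixture of cells. In such a bulk sample, fewer cells of a type and less RNA per cell cannot be told apart.

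Arginine is a substrate for which several enzymes compete. Arginases split it into urea and ornithine, nitric oxide synthase turns it into citrulline and nitric oxide, and ornithine feeds either polyamines or proline. In macrophages *Arg1* and *Nos2* have long served as the labels of opposite activation states, and both depend on carriers that bring arginine into the cell.

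Levels are given as CPM, the share of a gene in the reads of a library, on library sizes scaled by TMM, a method that corrects for a few abundant genes. Changes are log2 fold changes of ARG1+ over ARG1- cells from edgeR's quasi-likelihood test with the animal as a block, and a gene is called at a false discovery rate (FDR) below 0.05 over all 13740 genes. Library totals ranged from 28870482 to 33826355 counts in ARG1+ cells and from 8396863 to 35455643 in ARG1- cells, where the lowest was that of m234. The genes of the gate were read in all 10 libraries, with *Ptprc* (CD45) at 595 to 827 CPM and *Cx3cr1* at 43.9 to 565 CPM. Both were lower in ARG1+ cells, *Ptprc* by 0.22 log2 units (edgeR FDR 0.00192) and *Cx3cr1* by 0.97 (edgeR FDR 9.24e-05). Of 8 myeloid markers, these among them, 4 were higher and 4 lower. None of 8 markers of T and NK cells passed the filter. The groups also differed in other markers. Of 10 microglia markers 8 were lower in ARG1+ cells, of 7 dendritic cell markers above the filter 6 were lower, all 4 border macrophage markers above the filter were higher, and of 6 monocyte markers 4 were lower and 1 was higher. Of 4 B and plasma cell markers above the filter 3 were lower (*Ighm*, *Igkc* and *Jchain*). All 8 markers of this list, those below the filter included, summed to 5.85 to 17.7 CPM in ARG1+ and 32.3 to 68.7 CPM in ARG1- libraries. Of 3 neutrophil markers above the filter 2 were lower, *Csf3r* with a log2 ratio of -0.33 and *S100a9* with -3.14. The third, *S100a8*, was higher with 0.26. *S100a9* reached at most 6.28 CPM in any library, whereas *S100a8* had at least 10.4 CPM and *Csf3r* at least 113 CPM in each. The log2 ratio of the summed neutrophil list ran from -0.55 in m234 to -0.05 in m236. *Lyve1*, *Cd163* and *Folr2*, which define border macrophages, had at most 0.278 CPM in any library. The summed microglia markers were lower in ARG1+ than in ARG1- cells by 1.36 log2 units in m234 and by 0.60 in m2, but by only 0.08 to 0.13 in the other animals.

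In ARG1+ cells 4 of the 10 genes were higher (*Arg1*, *Slc7a2*, *Arg2* and *Azin1*), 2 were lower (*Slc7a1* and *Sat1*) and 4 did not pass (*Nos2*, *Odc1*, *Srm* and *Sms*). Among all genes tested, 35.1% were called, 16.8% as higher and 18.3% as lower, so that the count over these few genes is not read as a property of the set. *Arg1* alone passed the limit of 1 log2 unit that the methods set, as 2.21% of all genes did. All 5 animals shared the direction of change for 7 of the 10 genes, beside 41% of all genes, and the 2 groups of libraries did not overlap for 3 of them (*Arg1*, *Slc7a1* and *Sat1*), beside 11.3% of all genes. Without the block 3 genes remained called, *Arg1*, *Slc7a1* and *Slc7a2*, beside 13% of all genes.

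**Figure D1:**
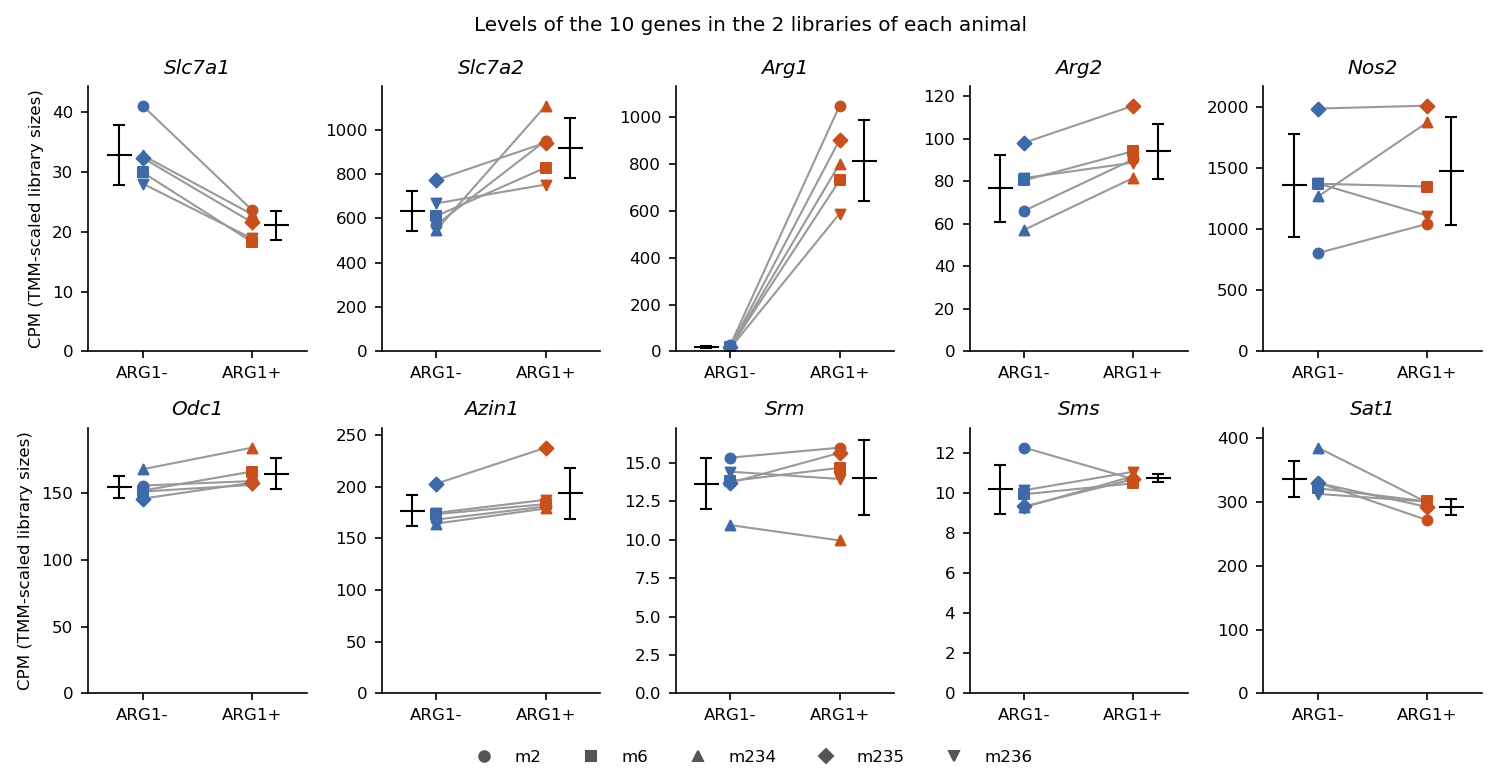
Level of each of the 10 genes in CPM (linear axis from 0), with the ARG1- library (blue) and the ARG1+ library (orange) of each animal joined by a line, and mean and SD of the 5 libraries as black bars. The lines of *Slc7a1* and *Sat1* all fall from ARG1- to ARG1+, those of *Slc7a2*, *Arg2*, *Odc1*, *Azin1* and *Arg1* all rise, and those of *Nos2*, *Srm* and *Sms* go both ways.

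The carriers moved in opposite directions. *Slc7a1* (ENSMUSG00000041313, chromosome 5, 148327410 to 148399904, reverse strand of GRCm38) codes for CAT1, the carrier that most proliferating cells use. Its level was 23.7, 18.3, 23.0, 21.6 and 18.9 CPM in the ARG1+ libraries and 41.1, 29.98, 32.8, 32.4 and 28.1 CPM in their ARG1- libraries. The highest ARG1+ library lay below the lowest ARG1- library. The means were 21.1 ± 2.40 and 32.9 ± 4.99 CPM (SD, n = 5), a log2 fold change of -0.64 (standard error 0.0540, edgeR FDR 2.20e-05), or a level 1.56-fold lower in ARG1+ cells. Within animals the log2 ratio ranged from -0.80 in m2 to -0.52 in m234.

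*Slc7a2* (ENSMUSG00000031596, chromosome 8, 40862396 to 40922308, forward strand) codes for CAT2, the carrier that macrophages raise on activation. ARG1+ libraries held 951, 829, 1108, 942 and 753 CPM. ARG1- libraries held 572, 611, 549, 774 and 668 CPM. The ARG1+ library was the higher of the pair in all 5 animals, although the 2 ranges met, as the ARG1+ library of m236 lay below the ARG1- library of m235. The mean rose from 635 ± 89.9 to 917 ± 135 CPM (SD, n = 5), a log2 fold change of 0.53 (standard error 0.103, edgeR FDR 0.00345). The size differed among animals, from 0.17 in m236 to 0.73 in m2 and 1.01 in m234, the animals whose microglia markers also differed most between libraries. With m6, m235 and m236 alone, a setting chosen after these values were seen, the log2 fold change was 0.30 (edgeR FDR 0.000684), while that of *Slc7a1* was -0.62. The parts of microglia and of the low total of the ARG1- library of m234 in the change of *Slc7a2* were not tested. Exons of *Gm26584* on the opposite strand cover 1.87% of the exon bases of *Slc7a2*.

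RefSeq promoter windows of the GRCm38.p6 build were at hand for 4 of the 10 genes. Those of *Slc7a1* and *Sat1* are shown because these are the genes of the set that fell, and each ends at the base before the start that the count table gives for the gene. They hold the 250 bases before the start, 5' to 3' on the strand of the gene, at chr5:148399905-148400154 (reverse strand) and chrX:155216450-155216699 (reverse strand). Capitals mark the GC box GGGCGG, the core of the site bound by Sp1, on either strand.
Slc7a1: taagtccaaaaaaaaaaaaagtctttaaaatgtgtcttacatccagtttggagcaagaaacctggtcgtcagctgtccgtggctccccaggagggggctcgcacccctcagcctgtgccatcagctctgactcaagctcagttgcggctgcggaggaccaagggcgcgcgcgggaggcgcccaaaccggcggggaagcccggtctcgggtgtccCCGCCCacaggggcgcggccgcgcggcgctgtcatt
Sat1: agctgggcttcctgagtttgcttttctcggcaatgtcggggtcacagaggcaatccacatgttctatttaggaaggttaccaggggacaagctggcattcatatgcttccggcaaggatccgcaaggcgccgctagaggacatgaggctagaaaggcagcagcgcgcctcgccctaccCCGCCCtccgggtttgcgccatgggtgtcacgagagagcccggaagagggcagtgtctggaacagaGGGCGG
The GC box stood 36 bases before the start of *Slc7a1* and 72 and 6 bases before that of *Sat1*, and 32.7% of the 32851 windows of this length in the table hold it. The window of *Odc1* held 4, as did a window of *Sms*, and neither gene passed the test. A further window of *Slc7a1*, at another start, held 0. The E-box CACGTG, to which MYC and MAX bind, was in neither printed window and is in 6.02% of all windows, among them a window of *Sms*. The 2 motifs do not overlap in these windows. *Slc7a1* and *Sms* have a second window in the table at another start, which is not shown.

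**Figure D2:**
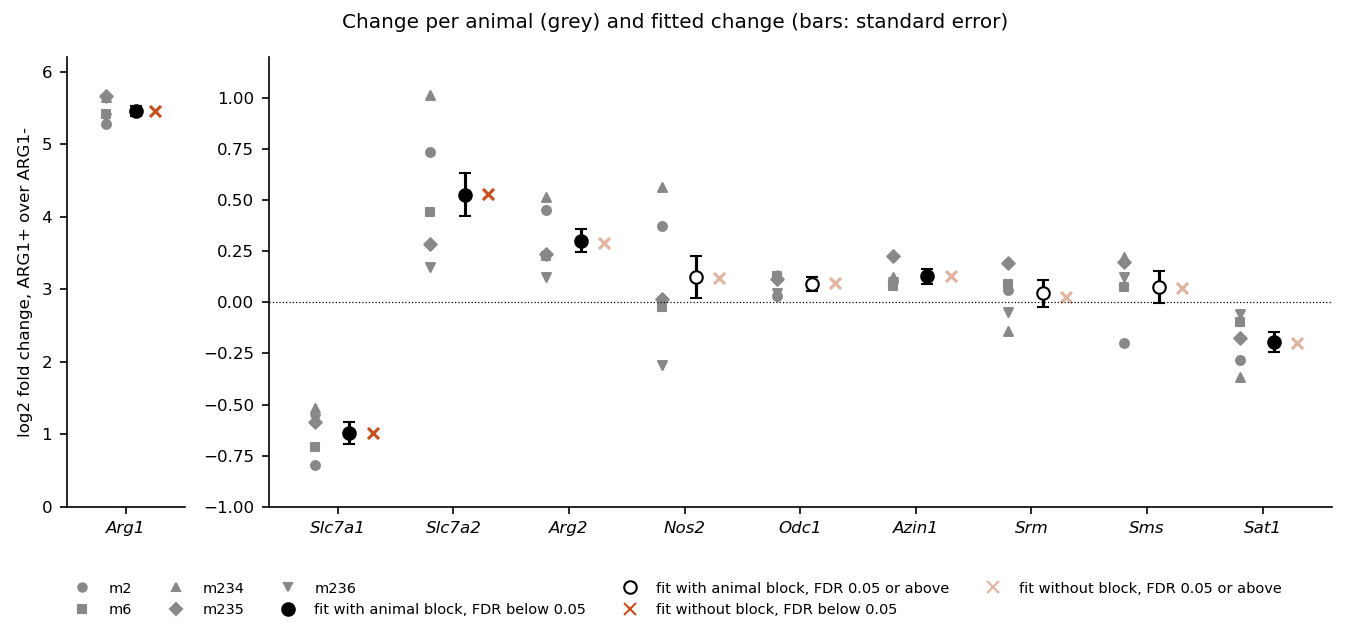
Log2 fold change of ARG1+ over ARG1- cells, with *Arg1* on an axis of its own, as ratios within each animal (grey), as the fit with the animal as a block with its standard error (circles, filled where the FDR is below 0.05) and as the fit without the block (crosses, pale where the FDR is 0.05 or above). The animals of *Slc7a2* spread from 0.17 to 1.01, those of *Slc7a1* only from -0.80 to -0.52, and those of *Nos2* lie on both sides of 0.

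*Arg1* (ENSMUSG00000019987, chromosome 10, 24915221 to 24927484, reverse strand), the cytosolic arginase, checks the sort and is no finding, since its reporter chose the cells. ARG1+ libraries held 588 to 1049 CPM and ARG1- libraries 14.3 to 27.0 CPM, so that reads of *Arg1* were present in every ARG1- library. Whether they came from YFP- cells or from YFP+ cells that passed the gate was not tested. The ratio between the 2 libraries of an animal was 38.9-fold in m2, the lowest, and 50.5-fold in m235, the highest. The animals themselves differed, and m2 had the highest level in both libraries. *Gm36172*, a noncoding gene that starts 135 bases from *Arg1* on the opposite strand, averaged 2.73 CPM in ARG1+ cells against 0.606 CPM in ARG1- cells.

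*Arg2* (ENSMUSG00000021125, chromosome 12, 79130777 to 79156301, forward strand), the mitochondrial arginase, was not part of the gate. Its level was 90.4, 94.3, 81.7, 116 and 88.8 CPM in the ARG1+ libraries and 66.2, 80.5, 57.2, 98.2 and 81.6 CPM in their ARG1- libraries. Each animal had more *Arg2* in its ARG1+ library, but by less than the animals differed, and the groups overlapped. The mean rose from 76.7 ± 15.7 to 94.2 ± 12.8 CPM (SD, n = 5), a log2 fold change of 0.30 (standard error 0.0555, edgeR FDR 0.00246). Without the replicate block the FDR was 0.167. The rise was largest in m234 and m2 (0.51 and 0.45). With m6, m235 and m236 alone, the setting chosen after the values were seen, it was 0.20 (edgeR FDR 0.00316). Why the animals differed was not tested. Exons of *Vti1b* and *Gm48780* on the opposite strand cover 20% and 8.12% of the exon bases of *Arg2*, and *Vti1b* stood at 0.11 (edgeR FDR 0.150). No source used here states whether reads were counted by strand.

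*Nos2* (ENSMUSG00000020826, chromosome 11, 78920787 to 78960254, forward strand), the inducible nitric oxide synthase (iNOS), was abundant in both groups. ARG1+ libraries held 1042, 1347, 1871, 2007 and 1108 CPM. ARG1- libraries held 803, 1370, 1266, 1984 and 1372 CPM. *Nos2* was higher in the ARG1+ library of 3 animals and lower in that of 2, and the animals differed more than the groups, with mean levels that spanned 2.18-fold from the lowest animal to the highest. The log2 fold change was 0.12 (standard error 0.104, edgeR FDR 0.390), which does not show that the levels are equal. Its sign rested on m2 and m234, where it was 0.38 and 0.56. With the other animals alone, the setting chosen after the values were seen, the change was -0.10 (edgeR FDR 0.195). In a fit of all 29542 genes with at least 1 count, in place of the filtered ones, *Nos2* was called with a similar change of 0.14 (edgeR FDR 0.00854), and the cause was not tested. The counts are of RNA, and iNOS protein was not measured in these libraries.

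*Odc1* (ENSMUSG00000011179, chromosome 12, 17544794 to 17551505, forward strand) codes for ornithine decarboxylase, which turns ornithine into putrescine and so opens the polyamine branch. It ranged from 156 to 184 CPM in ARG1+ and from 146 to 167 CPM in ARG1- cells. The ARG1+ library was higher in all 5 animals, by 0.03 to 0.13 log2 units, yet the change of 0.09 did not pass (standard error 0.0338, edgeR FDR 0.0630). Of the stretches of 50 bases in its transcripts 24.3% also occur in other genes, 11.7% in the pseudogene *Gm7993*, so that part of its counts is uncertain. *Arg1*, *Arg2*, *Nos2* and *Azin1* share no such stretch.

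*Azin1* (ENSMUSG00000037458, chromosome 15, 38487427 to 38519266, reverse strand) codes for antizyme inhibitor, which binds antizyme and thereby spares ornithine decarboxylase from breakdown. Its level was 181, 183, 179, 238 and 187 CPM in the ARG1+ libraries and 168, 173, 164, 203 and 175 CPM in their ARG1- libraries. The ARG1+ library was higher in every animal, and both libraries of m235 stood above the rest of their group. The log2 fold change was 0.13 (standard error 0.0353, edgeR FDR 0.0191). This small change was not called without the replicate block (FDR 0.341), with library totals in place of TMM sizes (FDR 0.0899), without m2 (FDR 0.0587) or without m235 (FDR 0.0711). Exons of *Gm49077* on the opposite strand cover 7.12% of the exon bases of *Azin1*.

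*Srm* and *Sms* code for spermidine synthase and spermine synthase, which lengthen putrescine step by step. *Srm* (ENSMUSG00000006442, chromosome 4, 148591503 to 148594993, forward strand) averaged 14.0 ± 2.42 CPM in ARG1+ cells against 13.6 ± 1.64 CPM in ARG1- cells (SD, n = 5), and its log2 ratio of 0.04 did not pass (standard error 0.0662, edgeR FDR 0.646). Both libraries of m234 were the lowest of their group, at 9.95 and 10.9 CPM. *Sms* (ENSMUSG00000071708, chromosome X, 157443855 to 157492287, reverse strand) had 10.8 ± 0.214 and 10.2 ± 1.22 CPM (SD, n = 5), and its log2 ratio of 0.08 did not pass either (standard error 0.0805, edgeR FDR 0.505). The ARG1+ libraries of *Sms* lay within 10.5 to 11.1 CPM, whereas the ARG1- libraries spread from 9.30 to 12.3. These 2 genes had the fewest reads of the set, 93 counts of *Srm* and 79 of *Sms* in the ARG1- library of m234, and 17.5% of the 50-base stretches of *Sms* also occur elsewhere, mainly in *Sms-ps*.

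*Sat1* (ENSMUSG00000025283, chromosome X, 155213132 to 155216449, reverse strand) codes for the acetyltransferase that marks spermidine and spermine for export or oxidation. ARG1+ libraries held 271, 301, 299, 292 and 300.3 CPM. ARG1- libraries held 330.1, 321, 385, 329 and 312 CPM. *Sat1* was lower in the ARG1+ library of each animal and the groups did not overlap, with the ARG1- library of m234 well above the rest. The mean fell from 336 ± 28.4 to 293 ± 12.4 CPM (SD, n = 5), a log2 fold change of -0.19 (standard error 0.0482, edgeR FDR 0.0115). The call was lost without the replicate block (FDR 0.0642) and without m2 (FDR 0.0609). The largest changes were those of m234 and m2, at -0.36 and -0.28. With m6, m235 and m236 alone the change was -0.11 (edgeR FDR 0.0683). That setting was chosen after the values were seen and leaves out the animals that changed most, so a smaller change follows from the choice. Why the animals differed was not tested. Of the 50-base stretches of *Sat1* 2.72% occur in other genes, 2.55% in *Gm46610*.

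Per kilobase of exon, a scale on which genes can be set side by side, *Arg1* came first in ARG1+ cells with 551 ± 118 CPM per kb (SD, n = 5), ahead of *Nos2* with 343 ± 103 and *Sat1* with 247 ± 10.5. *Arg1* exceeded *Nos2* in each of the 5 ARG1+ libraries, although the ranges of the 2 genes overlapped across animals. *Slc7a2* (106 ± 15.6), *Odc1* (74.4 ± 5.196), *Arg2* (65.9 ± 8.98) and *Azin1* (38.5 ± 4.94) followed, and *Srm* (10.5 ± 1.81), *Slc7a1* (2.94 ± 0.334) and *Sms* (2.90 ± 0.0576) closed the order. The ranges of *Nos2* and *Sat1* overlapped too, although *Nos2* was the higher in all 5 libraries, as did those of *Odc1* and *Arg2* and of *Slc7a1* and *Sms*. In ARG1- cells *Nos2* (316 ± 97.9) and *Sat1* (284 ± 24.0) led and could not be ordered, as *Nos2* was the higher in only 3 of 5 libraries. *Slc7a2* (73.3 ± 10.4) and *Odc1* (69.8 ± 3.73) likewise overlapped, as did *Odc1* with *Arg2* (53.7 ± 11.0) and *Arg2* with *Azin1* (35.1 ± 3.03). *Arg1* stood in the seventh place with 12.5 ± 3.36 CPM per kb and overlapped *Srm* (10.2 ± 1.23), and *Slc7a1* (4.58 ± 0.696) was above *Sms* (2.74 ± 0.327) in all 5 libraries.

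**Figure D3:**
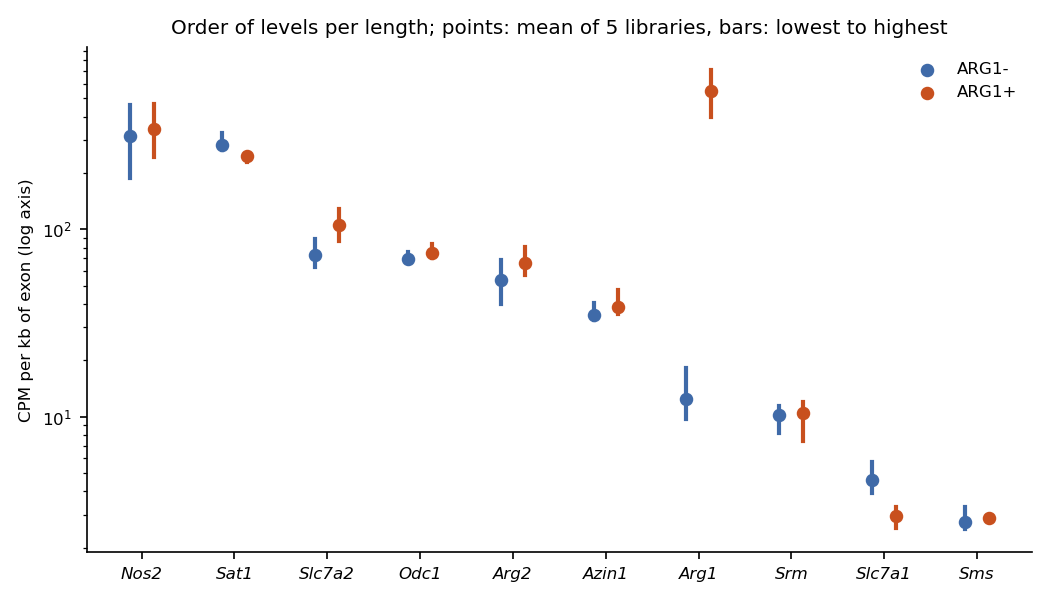
Level per length of the 10 genes in CPM per kb of exon (log axis), ordered by the ARG1- mean, with points for the mean of 5 libraries and bars from the lowest to the highest library. *Arg1* moves from 12.5 in ARG1- cells (blue) to 551 in ARG1+ cells (orange), while *Nos2* keeps about the same range in both groups and *Sms* and *Slc7a1* are the lowest in both.

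Ratios between members within a library do not depend on library size, and they are described here without a test. On the scale of CPM per kb, the ratio of *Slc7a1* to *Slc7a2* was 0.0250 to 0.0303 in ARG1+ libraries and 0.0505 to 0.0868 in ARG1- libraries, so that it was lower in all 5 animals and the groups did not overlap. CAT1 transcripts were thus the minor carrier transcript in every library. The ratio of *Odc1* to *Sat1* was 0.301 ± 0.0204 in ARG1+ and 0.247 ± 0.0111 in ARG1- cells (SD, n = 5), higher in 5 of 5 animals, and the groups did not overlap. The ratio of *Azin1* to *Oaz1*, which codes for the antizyme that *Azin1* counters, was 0.268 ± 0.0301 and 0.222 ± 0.0172, also higher in 5 of 5 animals, with groups that overlapped. The ratio of *Srm* to *Sms* was higher in 2 of 5 animals. The ratios with *Arg1* carry the sort. *Arg1* to *Nos2* was 1.245 to 2.93 in ARG1+ and 0.0262 to 0.0977 in ARG1- libraries, and m2 had the highest value of both groups.

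**Figure D4:**
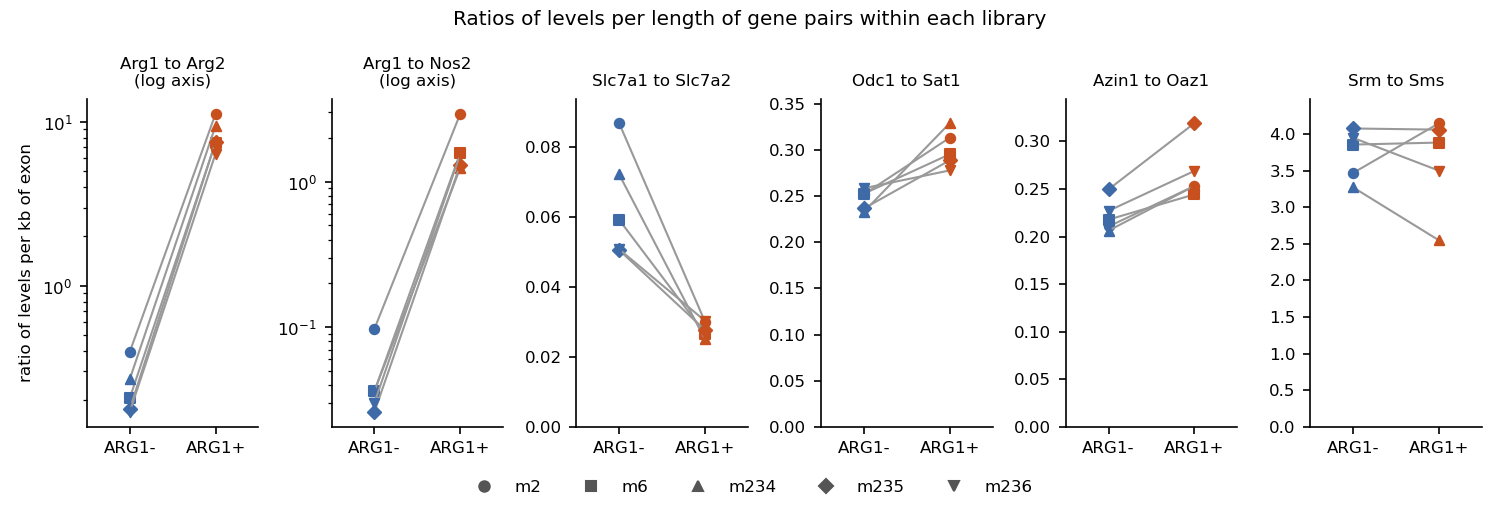
Ratio of the levels per kb of exon of 6 gene pairs within each library, joined by animal (log axis for the pairs with *Arg1*, linear from 0 for the others). *Slc7a1* to *Slc7a2* falls in all 5 animals to between 0.0250 and 0.0303, and *Srm* to *Sms* rises in 2 animals and falls in 3.

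The other genes of the pathway were 75 genes in 8 lists, of which 47 passed the filter. Of these, 8 were higher and 7 lower in ARG1+ cells, 31.9% beside 35.1% of all genes, and none passed 1 log2 unit. Their median log2 fold change was 0.01, and that of all genes tested was -0.00214. Without the replicate block 7 of them were called, *Ass1*, *Aldh18a1*, *Mat2b*, *Mtap*, *Adi1*, *Smox* and *Atp13a2*, each in the same direction. A list held 2 to 11 tested genes, so that the count of a single list is not read as its property.

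Among 8 tested genes of cationic amino acid transport, 1 was higher and 2 were lower. *Slc25a15*, the mitochondrial ornithine carrier, rose by 0.34 (edgeR FDR 0.0322) at a level of 9.71 CPM in ARG1+ cells. *Slc3a2*, the heavy chain that several amino acid carriers share and the most abundant gene of the list at 633 CPM, fell by 0.14 (edgeR FDR 0.0279), as did *Slc38a9*, the lysosomal arginine sensor (edgeR FDR 0.0462). Of the genes that rebuild arginine from citrulline, *Ass1* fell by 0.40 (edgeR FDR 0.00432), from 435 ± 60.5 to 331 ± 48.7 CPM (SD, n = 5) without overlap between groups, and *Asl* stood at -0.11 (edgeR FDR 0.106). *Ass1* shares 38.6% of its 50-base stretches with *Gm5424*, a near copy whose counts fell by 0.41, so that reads of the 2 cannot be told apart with certainty. *Otc*, *Cps1* and *Nags* of the liver urea cycle had at most 13 counts over the 10 libraries.

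Around ornithine and proline, 1 of 6 tested genes was called. *Aldh18a1*, which makes the precursor of ornithine and proline from glutamate, fell by 0.65 (standard error 0.0550, edgeR FDR 2.20e-05), from 27.5 ± 4.75 to 17.4 ± 2.46 CPM (SD, n = 5), and the groups did not overlap. The change was close in size to the -0.64 of *Slc7a1*. *Oat*, which turns ornithine toward proline and was the most abundant gene of the list at 90.9 CPM in ARG1+ cells, stood at 0.08 (edgeR FDR 0.145).

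Of 11 tested genes that supply or control polyamine synthesis, 3 were higher and 2 lower. *Mtap* and *Adi1*, which recover methionine from the by-product of spermidine and spermine synthesis, rose by 0.36 (edgeR FDR 0.00835) and 0.42 (edgeR FDR 0.000820). *Mtap* was higher in the ARG1+ library of 4 animals and *Adi1* in that of all 5, and the groups overlapped for both. Other genes of this recovery did not pass, with *Mri1* at 0.08 (edgeR FDR 0.478), *Apip* at 0.02 (edgeR FDR 0.867) and *Enoph1* at -0.20 (edgeR FDR 0.0745). *Mat2a*, the catalytic subunit that makes S-adenosylmethionine and the most abundant gene of the list, fell by 0.20 (edgeR FDR 0.0122), whereas its regulatory partner *Mat2b* rose by 0.19 (edgeR FDR 0.00432). *Oaz1* fell by 0.14 (edgeR FDR 0.00886), and 20.1% of its stretches also occur in *Oaz1-ps*. That copy drew about as many reads, with 24711 counts over the ARG1+ libraries beside 23793 of *Oaz1*. It was not called, at -0.09 (edgeR FDR 0.0640), so that part of the counts of *Oaz1* is uncertain. *Amd1* and *Amd2*, copies of the decarboxylase that feeds both synthases, share most of their sequence and neither passed.

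In polyamine breakdown and transport, only 4 of 10 genes passed the filter, and 3 of these were called, 2 higher and 1 lower. *Atp13a2*, the lysosomal exporter of polyamines, rose by 0.47 (standard error 0.0338, edgeR FDR 8.75e-06), from 300.2 ± 28.3 to 416 ± 44.8 CPM (SD, n = 5), without overlap between groups. *Paox*, which oxidises the acetylated polyamines that *Sat1* makes, rose by 0.36 (edgeR FDR 0.00266), and 25.9% of its stretches occur elsewhere, mainly in *Gm19680*. *Smox*, which oxidises spermine directly, fell by 0.26 (edgeR FDR 0.00354). None of the 4 genes of eIF5A and its hypusine mark, a modification made from spermidine, was called, with *Eif5a* itself at -0.10 (edgeR FDR 0.0848).

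Of 7 tested genes of nitric oxide synthesis and its cofactor tetrahydrobiopterin, *Qdpr*, which regenerates the cofactor, rose by 0.24 (edgeR FDR 0.00357), and exons of *Gm42413* on the opposite strand cover 21.1% of its exon bases. *Gch1*, the first enzyme of cofactor synthesis and the most abundant of the list, stood at -0.07 (edgeR FDR 0.194). Of 5 other users of arginine, *Gamt*, the last enzyme of creatine synthesis, rose by 0.30 (edgeR FDR 0.0326), while *Gatm*, the first one and far more abundant with 319 CPM in ARG1+ cells, stood at -0.02 (edgeR FDR 0.765). *Nos1*, *Nos3* and the subunit genes of the nitric oxide receptor, *Gucy1a1* and *Gucy1b1*, did not pass the filter.

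**Figure D5:**
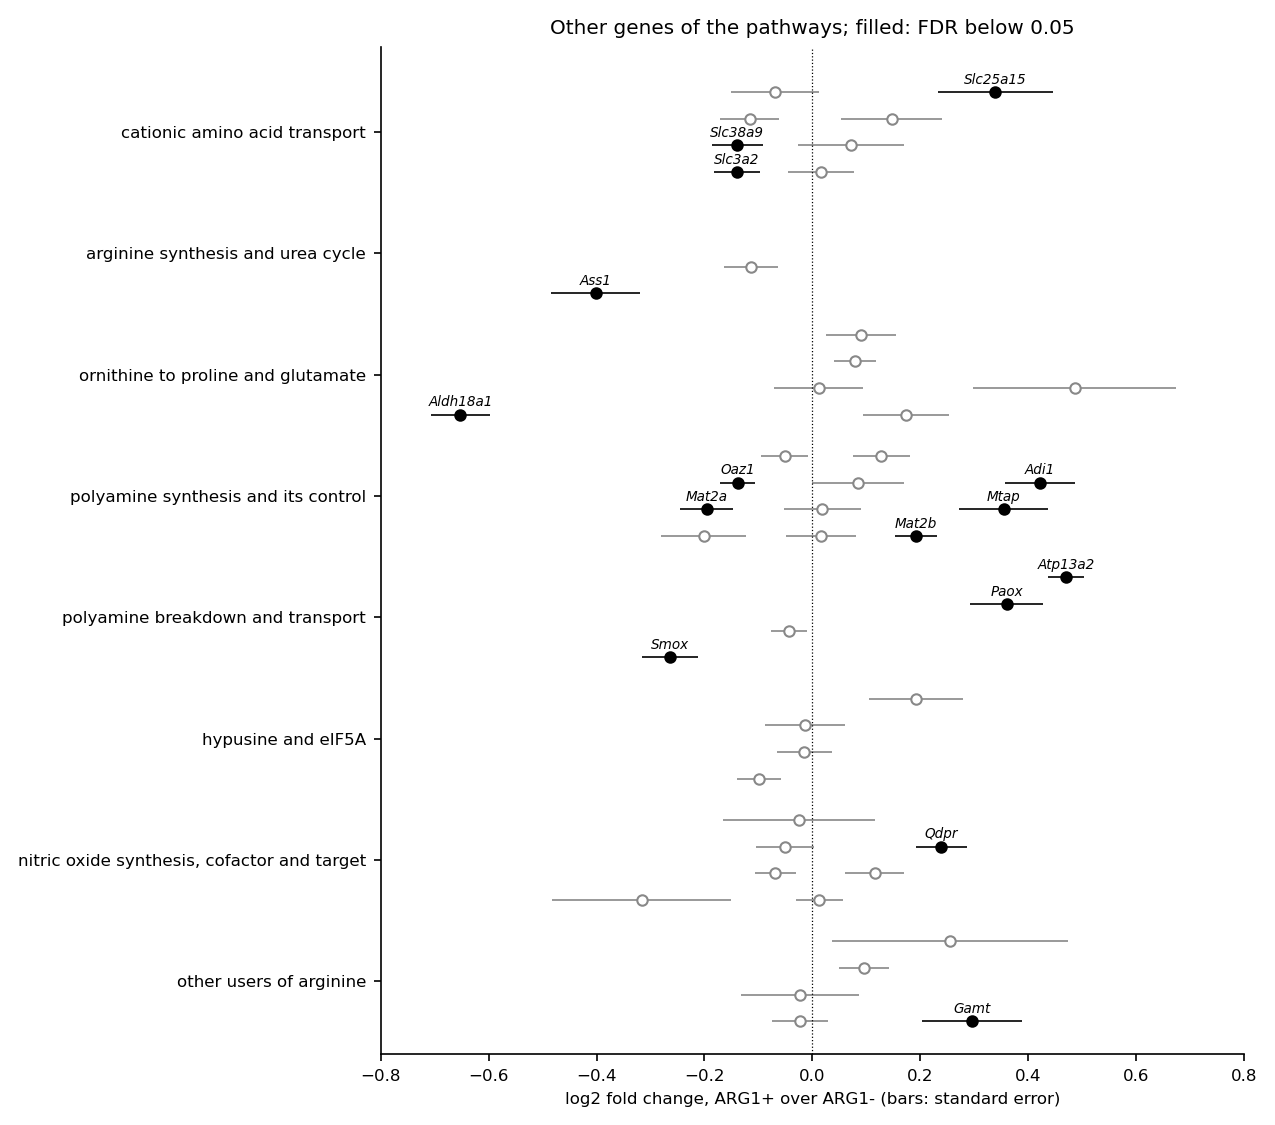
Log2 fold change of ARG1+ over ARG1- cells with its standard error for the 47 tested genes of the 8 pathway lists, filled and named where the FDR is below 0.05. All changes lie between -0.65 and 0.49, and 3 lists, of amino acid transport, polyamine synthesis and polyamine breakdown, hold genes called in both directions.

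Over the 10 libraries, the genes whose log2 CPM ran most closely with a member were named by Pearson's r as a description, since the points share animals, library and group. For *Slc7a1* they were *Jarid2* (r = 0.988), *Lrrfip1* (0.974) and *Kmo* (0.968). For *Slc7a2* they were *Coq10b* (0.946), *Ggta1* (0.945) and *Cd84* (0.940), and for *Arg2* *Gsr* (0.981), *Cstb* (0.981) and *Rnh1* (0.981). *Sat1* ran with *Snrpert* (0.973), *Irf2bpl* (0.964) and *Rab3ip* (0.963), and *Azin1* with *Cib1* (0.983), *Casp1* (0.965) and *Milr1* (0.963). For *Arg1* they were *Abca1*, *Itsn1* and *Septin8* (0.975 to 0.976), all of them higher in ARG1+ cells by 0.73 to 0.84.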

How the data were processed

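Spinal cord cells of 5 mice were measured as 10 RNA-seq libraries read for 50 bases from 1 end. Reads were aligned to GRCm38 by the authors with STAR (2.7.10b in the submitters' processing notes) and counted with summarizeOverlaps in Union mode on the basic Ensembl annotation. The deposited values are whole-number counts per gene without normalization, and no column was left out. The test covered genes whose CPM exceeded 1 in 3 or more libraries and used edgeR 4.0.16 in R 4.3.3 (quasi-likelihood test, TMM sizes, Benjamini-Hochberg adjustment). The methods name limma-trend with the same filter and no block. The block was used because both libraries of a number come from the same animal. Residual correlations were 0.361 to 0.664 within animals and at most 0.0675 between animals. The residuals were taken from the mean of each group, which by itself lowers the values between animals. Without the block 3 members were called, against 6 with it. Libraries of a group were not duplicates (chi-square of 17.8 to 71.7 per degree of freedom). Alternatives were DESeq2 1.42.0, limma 3.58.1, other sizes and filters, and each animal left out. The fit was tested on simulated data of 13638 genes, where it recovered 185 of 195 genes changed by 1 log2 unit with 9 false calls. No smaller change was simulated, and far fewer genes changed than were called in the data. It therefore gives neither the recovery nor the false calls for the changes below 1 log2 unit reported here.

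Exon lengths, overlaps and shared stretches came from the GENCODE M21 basic annotation of the same build, which is not the release used for counting. The lowest library total, 8396863, makes 1 CPM about 8.40 counts. The genes, lists and naming rule were chosen with earlier results of these data known. Named list genes are the most abundant of each list and at most 5 called genes per list and direction. Genes that overlap a member are named beside it, as are some that share sequence or position with a list gene, and the other list genes named were chosen after their values were seen.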

Additional observations from a re-analysis of the deposited data

Results flagged for a closer look

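In groups of 5 libraries, a value was marked where its gap to the nearest other value took more than 0.71 of the range of the group. Of 32 groups of members and ratios, 7 values were marked, where chance alone marks about 1 group in 20. *Arg1* had 27.0 CPM in the ARG1- library of m2, where the next highest had 17.9. The ratio of *Arg1* to *Nos2* counts in m2 was 1.01 in ARG1+ and 0.0336 in ARG1- cells, with the next highest at 0.542 and 0.0126. *Azin1* was highest in both libraries of m235, with 238 CPM in ARG1+ cells (next 187) and 203 CPM in ARG1- cells (next 175). *Sat1* had 385 CPM in the ARG1- library of m234, the library with the fewest counts, where the next had 330.1. *Sms* had 12.3 CPM in the ARG1- library of m2, above 10.1 in the next.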

How the results depend on the processing

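Without the replicate block 3 of 10 members were called instead of 6 (2 higher instead of 4, 1 lower instead of 2), and 7 list genes instead of 15 (4 higher and 3 lower instead of 8 and 7). Over all genes 1782 were then called instead of 4826. With a log2 fold change above 1 required as well, 1 member was called (1 higher, 0 lower) and 0 list genes in either direction, where 304 of all genes were. Leaving out each animal in turn gave 4 to 6 members (3 to 4 higher, 1 to 2 lower) and 11 to 17 list genes (6 to 9 higher, 4 to 8 lower). The count of lower members was lowest without m2, and that of lower list genes without m6. The share of all genes called moved as well, from 22.7% without m2 to 40.7% without m234. With m6, m235 and m236 alone, chosen after the data were seen, 5 members were called, 1 of them lower, beside 33.0% of all genes. There *Nos2* changed sign, and it was called neither in that fit nor in the main fit. Library totals in place of TMM sizes moved the median of all genes to -0.04 and the calls to 1809 higher and 3226 lower, from 2307 and 2519. DESeq2, limma-trend and RLE sizes each called 6 members. *Arg1*, *Slc7a1* and *Slc7a2* were called in every setting run without the fold limit. *Azin1* was lost in 4 of them, *Sat1* in 3 and *Arg2* in 1. The ARG1- library of m234 holds 93 counts of *Srm* and 79 of *Sms*, and neither gene was called with or without m234.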
